A study of Mus musculus with 550 samples.

Results

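The de novo DNA methyltransferase family was examined as 3 genes, Dnmt3a, Dnmt3b and Dnmt3l, in single cells of mouse embryoid bodies (EBs). The members were fixed by name and were 3 of the 55228 gene names in the count table. They were read in every cell with at least 50000 assigned reads, at least 2000 detected genes and at most 50% of reads from mitochondrial genes. Of 550 cells, 486 passed.

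De novo methyltransferases place methyl groups on cytosines of CpG dinucleotides that carried none before, whereas Dnmt1 copies existing methylation after replication. Dnmt3a and Dnmt3b are catalytic enzymes, and Dnmt3l is a catalytically inactive relative that binds both and stimulates their activity. In the mouse embryo the family is active as pluripotent cells leave the naive state around implantation.

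EBs are aggregates in which embryonic stem cells (ESCs), here of the line E14, begin to form the germ layers once the cytokine LIF is withdrawn. The groups were wild type (WT), homozygous Dnmt3a knockout (Dnmt3a-/-, 3AKO) and homozygous Dnmt3b knockout (Dnmt3b-/-, 3BKO), each at day 3 and day 9 of differentiation without LIF. No group received another treatment. The study used 2 independent clones for each knockout, and the labels do not say which cell came from which clone. Each genotype and day was therefore 1 sample, cells were not counted as replicates, and no test was run. Single cells had been sorted into 96-well plates and amplified with Smart-seq2, which yields reads along the whole transcript and no molecular identifiers. Intervals given here are at 95% and cover counting error only. Those of summed levels count each amplified read as independent and leave out the spread between cells.

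The 486 cells lay in 12 libraries, defined by genotype label, day and library batch, and batch 1 held 333 of them and batch 2 the other 153. Reads per kept cell ran from 54720 to 1450202, and the group medians ran from 214366 to 363652 reads and from 5652 to 7267 detected genes. No pair of kept cells had identical counts. The median mitochondrial share was higher in batch 2 than in batch 1 in each of the 6 groups (9.09% to 13.5% against 3.58% to 6.31%). At day 9 each genotype came from 1 plate, so plate and genotype cannot be told apart. All 9 naive pluripotency markers examined (Zfp42, Nanog, Esrrb, Klf4, Klf2, Tfcp2l1, Tbx3, Tcl1 and Nr0b1) had reads in the WT cells of both days, with a summed level of 2322 CPM (read counts scaled to a common library total) at day 9. The 11 meso-endoderm markers summed to 179 CPM there with a cell median of 0, and 1 of them, Mixl1, had no read in WT cells at either day.

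At day 3 Dnmt3a went against the labels of the batch 2 mutants. Dnmt3a was low in every library of plate 211, which carried the label 3AKO in batch 1 and 3BKO in batch 2, and high in those of plate 210, which carried 3BKO in batch 1 and 3AKO in batch 2. Day 3 mutant libraries are therefore described one by one by label, batch and plate, and are not pooled.

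Dnmt3a (ENSMUSG00000020661.15) lies on the forward strand of chromosome 12 at 3806007 to 3914443 (GRCm38), Dnmt3b (ENSMUSG00000027478.15) on the forward strand of chromosome 2 at 153649450 to 153687730, and Dnmt3l (ENSMUSG00000000730.13) on the forward strand of chromosome 10 at 78041947 to 78063622. Their annotated exons cover 16642, 5106 and 2988 bases. The counts are per gene, so the long and short Dnmt3a proteins, which start from separate promoters, were not separated. The promoters are shown because CpG dinucleotides are what these enzymes methylate. Whether their CpG counts bear on how the members varied over single cells was not tested. Windows of 300 bases (250 before to 50 after an annotated RefSeq start, GRCm38.p6, forward strand) were available for all 3 members, 7 windows in total. The dinucleotide CG is in capitals, and the median over all 32851 promoter windows was 7 per window.
Dnmt3a, first start, chr12:3806730-3807029: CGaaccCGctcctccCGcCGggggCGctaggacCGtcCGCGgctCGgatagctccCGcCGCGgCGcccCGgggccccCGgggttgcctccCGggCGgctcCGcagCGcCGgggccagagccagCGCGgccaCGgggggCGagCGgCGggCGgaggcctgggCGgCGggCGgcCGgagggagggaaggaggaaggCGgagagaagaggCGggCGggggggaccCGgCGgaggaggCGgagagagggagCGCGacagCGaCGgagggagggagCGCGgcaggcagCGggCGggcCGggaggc
Dnmt3a, downstream start, chr12:3891494-3891793: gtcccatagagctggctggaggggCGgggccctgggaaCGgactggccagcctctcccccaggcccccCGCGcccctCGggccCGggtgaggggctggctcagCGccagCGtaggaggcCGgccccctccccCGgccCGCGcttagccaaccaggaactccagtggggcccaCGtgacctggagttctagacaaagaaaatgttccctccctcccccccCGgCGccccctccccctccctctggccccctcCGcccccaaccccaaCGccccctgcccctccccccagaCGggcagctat
Dnmt3b, chr2:153649199-153649498: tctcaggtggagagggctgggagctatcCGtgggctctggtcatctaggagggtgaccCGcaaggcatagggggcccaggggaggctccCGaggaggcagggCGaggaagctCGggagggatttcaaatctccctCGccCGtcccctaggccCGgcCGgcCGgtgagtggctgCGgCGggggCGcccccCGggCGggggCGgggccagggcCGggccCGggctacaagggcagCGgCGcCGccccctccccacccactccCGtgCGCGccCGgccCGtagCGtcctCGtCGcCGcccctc
Dnmt3l, first start, chr10:78042037-78042336: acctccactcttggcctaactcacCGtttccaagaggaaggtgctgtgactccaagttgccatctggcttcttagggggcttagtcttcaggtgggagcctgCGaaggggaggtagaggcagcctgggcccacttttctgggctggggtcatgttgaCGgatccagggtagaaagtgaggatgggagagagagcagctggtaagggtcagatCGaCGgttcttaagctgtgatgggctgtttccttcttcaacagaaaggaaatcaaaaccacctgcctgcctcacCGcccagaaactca
The first Dnmt3a window held 46 CpG, more than 98.4% of all windows, and the downstream window held 18, more than 70.3%. The Dnmt3b window held 30, more than 88.3%. The first Dnmt3l window held 6, more than 43.6% of windows, and its other starts held 4 and 3. All windows of Dnmt3l were thus below the median of 7 and all those of the enzymes above it. The counts are a description of the letters, not of methylation, which was not analysed here.

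In WT cells all 3 members were lower at day 9 than at day 3. Dnmt3a in single WT cells ranged from 0 to 2519 CPM at day 3, with a median of 253, and from 0 to 746 at day 9, with a median of 131. Dnmt3b ranged from 0 to 4339 CPM at day 3, with a median of 188, and from 0 to 1809 at day 9, with a median of 66.5. Dnmt3l ranged from 0 to 922 CPM at day 3, with a median of 36.04, and from 0 to 478 at day 9, with a median of 0. The days overlapped for every member, with a lower median and a lower highest cell at day 9. Summed over cells, the log2 ratio of day 9 to day 3, on log2(CPM + 1), was -1.17 for Dnmt3a (-1.36 in batch 1 and -0.89 in batch 2), -1.76 for Dnmt3b (-1.95 and -1.47) and -1.17 for Dnmt3l (-1.29 and -1.05). Dnmt3b and Dnmt3l were lower by at least 2-fold in both batches, as were 2.19% of the 10162 genes detected in enough cells to be compared, while 5.25% were higher. Dnmt3a passed it in batch 1 alone.

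**Figure D1:**
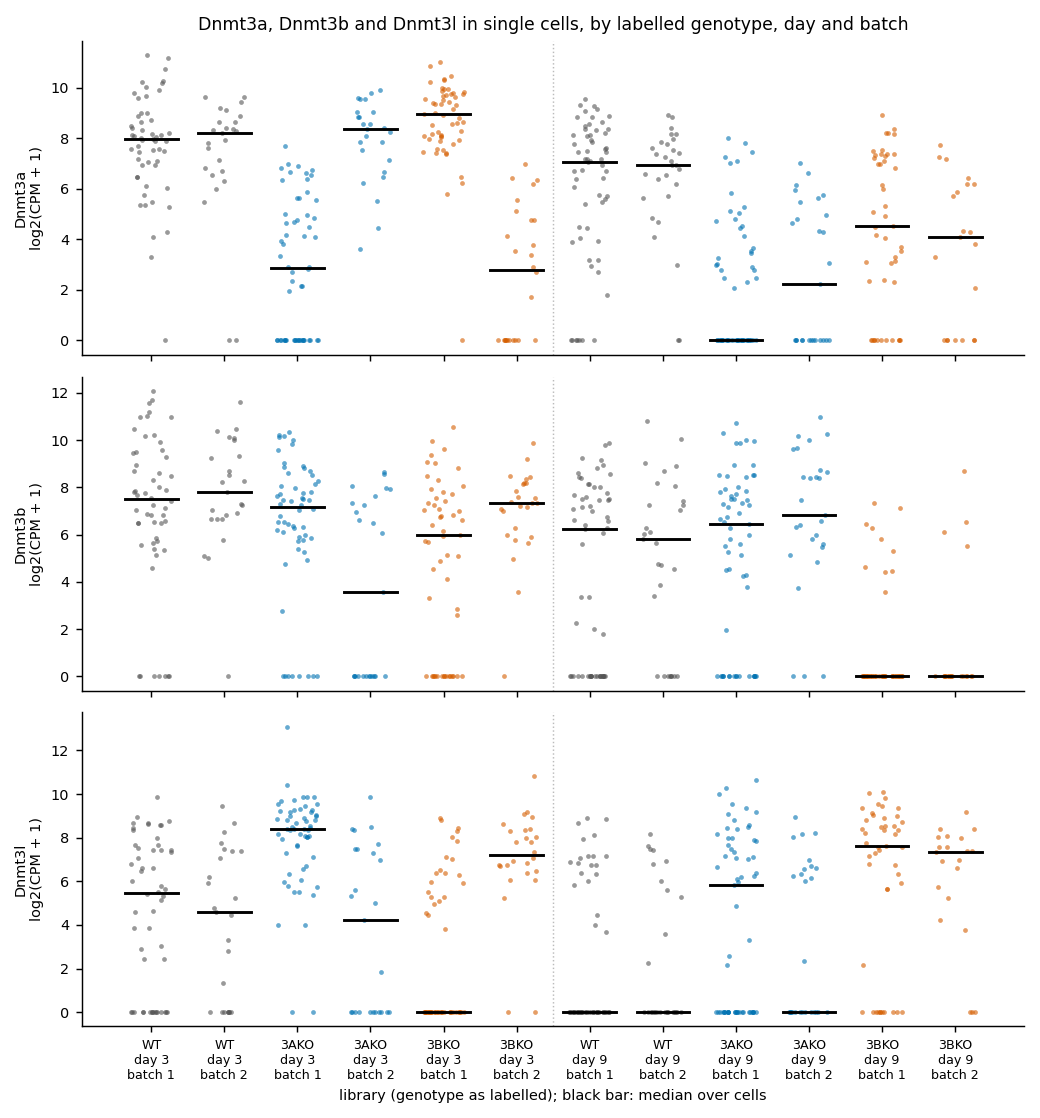
Each point is 1 cell, its height is log2(CPM + 1) of the member, columns are the 12 libraries by labelled genotype, day and batch, and black bars are medians. Dnmt3a is low in 3AKO day 9 and in 2 day 3 libraries with different labels, Dnmt3b is at 0 in most 3BKO day 9 cells, and Dnmt3l is highest in the batch 1 library labelled 3AKO at day 3.

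Levels can be set side by side between genes only per length. The length used here and below was that of all annotated exons of a gene together, 16642 bases for Dnmt3a. A single transcript can be shorter than that, which would raise the value per kilobase. The order of the members, the leading member of a cell, the family total and the family shares rest on this choice. Other lengths were not tried. Per kilobase of exon, Dnmt3b was the most abundant member in WT cells, with 111 CPM per kilobase at day 3 and 32.6 at day 9. Dnmt3l had 35.8 and 15.8, and Dnmt3a 22.5 and 9.95. Dnmt3b therefore made up 65.6% of the family total per kilobase at day 3 and 55.9% at day 9. In single cells the order was mixed. Dnmt3b was the leading member per kilobase in 39 of 79 WT cells at day 3, Dnmt3l in 27 and Dnmt3a in 13. At day 9 Dnmt3b led in 37 of 89 WT cells, Dnmt3a in 25 and Dnmt3l in 21, and 6 cells had no read of any member.

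The targeted genes came first in the day 9 knockouts. Dnmt3a had 25.2 CPM in 3AKO (23.2 to 27.3), against 166 in WT (161 to 170), a log2 ratio of -2.67. The 3AKO cells ran from 0 to 260 CPM with a median of 0, and 6 of 88 were above the WT median of their batch. Dnmt3b had 16.4 CPM in 3BKO (15.0 to 17.9), against 167 in WT (162 to 171), a log2 ratio of -3.27. A single cell, at 417 CPM, held 40.7% of the Dnmt3b reads of the group, and the upper quartile of the cells was 0. After thinning to 50000 reads a Dnmt3a read was left in 32.95% of 3AKO cells and a Dnmt3b read in 19.4% of 3BKO cells. Without the highest cell of each group the log2 ratio was -3.72. Both genes were lower by at least 2-fold in both batches, and so were 1.59% of 9201 genes in 3AKO and 4.98% of 9235 genes in 3BKO.

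Dnmt3a was also lower in the knockout of the other enzyme. In 3BKO cells at day 9 Dnmt3a ranged from 0 to 480 CPM with a median of 18.7, against 0 to 746 with a median of 131 in WT. The groups overlapped, with 17 of 67 cells above the WT median of their batch. The summed level was 63.03 CPM (60.2 to 65.9), a log2 ratio of -1.38 against WT (-1.06 for batch 1, -1.66 for batch 2). A Dnmt3a read was found in 56.7% of 3BKO cells thinned to 50000 reads (44.04% to 68.8%), and in 82.02% of WT cells (72.5% to 89.4%). The difference in share was -25.3 percentage points, and the bounds of both shares put it between -45.3 and -3.67. The level in 3BKO remained above that in 3AKO, by a log2 ratio of 1.29 (1.65 and 0.88 in the batches).

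Dnmt3b in the Dnmt3a knockout differed in the other direction and by less. In 3AKO cells it ranged from 0 to 2035 CPM with a median of 92.7, against 0 to 1809 with a median of 66.5 in WT. The summed level was 252 CPM in 3AKO (193 in batch 1 and 336 in batch 2) and 167 in WT (155 and 189), so the batches of the 2 groups did not overlap. The log2 ratio was 0.59 (0.31 and 0.83), short of 2-fold. Cells with a Dnmt3b read after thinning made up 73.9% of 3AKO (63.4% to 82.7%) and 59.6% of WT (48.6% to 69.8%), and with at least 5 reads 46.6% and 42.7%. The difference of 14.3 percentage points had bounds of -6.42 and 34.04. In WT batch 2, 1 cell at 1809 CPM held 40.4% of the Dnmt3b reads.

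Dnmt3l was higher in both knockouts at day 9. In 3AKO cells it ranged from 0 to 1591 CPM with a median of 18.4, in 3BKO cells from 0 to 1110 with a median of 170, and in WT cells from 0 to 478 with a median of 0. In 3BKO 53 of 67 cells, and in 3AKO 48 of 88, were above the WT median of their batch, which was 0. The log2 ratio to WT was 1.42 in 3AKO (1.57 and 1.18) and 2.26 in 3BKO (2.46 and 2.24). These were past 2-fold in both batches, as were 1.07% of genes tested in 3AKO and 2.86% in 3BKO on the higher side. Between the knockouts the log2 ratio of 3BKO to 3AKO was 0.84 (0.89 and 1.05). After thinning, 31.5% of WT cells, 50% of 3AKO cells and 76.1% of 3BKO cells had a Dnmt3l read. The difference from WT was 18.5 percentage points in 3AKO, with bounds of -3.02 and 38.8, and 44.7 in 3BKO, with bounds of 21.97 and 63.7. Among unthinned cells with at least 1 Dnmt3l read, the median was 113 CPM for WT, 152 for 3AKO and 256 for 3BKO. These bounds cover the counting of cells within 1 sample of each genotype and not the spread between samples.

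The make-up of the family per kilobase differed between the genotypes at day 9, and its total per kilobase was above that of WT in both knockouts. WT cells had a total of 58.3 CPM per kilobase, 3AKO cells 93.6 and 3BKO cells 83.7. By batch the total was 58.8 and 57.4 in WT, 92.96 and 94.4 in 3AKO, and 107.7 and 62.9 in 3BKO. In CPM not divided by length, Dnmt3a, Dnmt3b and Dnmt3l had 166, 167 and 47.1 in WT and 25.2, 252 and 128 in 3AKO. In 3BKO they had 63.03, 16.4 and 229, together less than in WT, so the higher 3BKO total rests on the exon lengths. In 3AKO Dnmt3b supplied 52.8% of the total per kilobase and Dnmt3l 45.6%. The order differed by batch, with 40.6% and 57.7% in batch 1 and 69.6% and 28.9% in batch 2. In 3BKO Dnmt3l supplied 91.6% (92.4% and 90.5%). Dnmt3b, the gene knocked out there, made up 55.9% of the WT total and led in 37 of 89 WT cells. Fewer Dnmt3b reads by themselves raise the share and the lead of the other members, so these values are not separate from the knockout. Dnmt3l led in 50 of 67 3BKO cells (74.6%, 62.5% to 84.5%), against 21 of 89 WT cells (23.6%, 15.2% to 33.8%) and 35 of 88 3AKO cells (39.8%, 29.5% to 50.8%). In 3BKO the remaining cells were led by Dnmt3a in 10, by Dnmt3b in 4 and by none in 3.

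The naive pluripotency markers, summed, were lower than in WT in 3AKO and higher in 3BKO, unlike Dnmt3l, which was higher in both. Zfp42, a large part of that sum, had the same order in both batches. It had 1023 and 848 CPM in WT, 551 and 336 in 3AKO, and 2789 and 1820 in 3BKO. The direction of each other marker was not examined. At day 9 the summed level of the 9 markers, 2322 CPM in WT, stood beside 1591 in 3AKO and 4602 in 3BKO. The cells ran from 0 to 8845, 0 to 9513 and 438 to 14891 CPM, and none of the 9 was at 0 in any of these groups. The 6 primed epiblast markers (Fgf5, Pim2, Otx2, Pou3f1, Sox4 and Sall2), genes of the epiblast after implantation, had 667, 744 and 258 CPM, with cells from 0 to 4589, 0 to 5312 and 0 to 1613, and none of the 6 was at 0 over a group. The part of these cell states in the differences of the family was not tested.

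At day 3 each library is given under its label. Dnmt3a ranged from 0 to 207 CPM with a median of 6.32 in the batch 1 library labelled 3AKO (plate 211), and from 0 to 125 with a median of 5.95 in the batch 2 library labelled 3BKO (plate 211). None of their 58 and 26 cells was above the WT median of its batch. In the batch 2 library labelled 3AKO (plate 210) the range was 11.3 to 976 CPM with a median of 334, and in the batch 1 library labelled 3BKO (plate 210) it was 0 to 2061 with a median of 492. The WT medians were 248 in batch 1 and 294 in batch 2.

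Dnmt3l went with the plate at day 3 in the opposite sense. It had 431 CPM in the batch 1 library labelled 3AKO and 196 in the batch 2 library labelled 3BKO, both on plate 211. On plate 210 it had 104 CPM in the batch 2 library labelled 3AKO and 52.2 in the batch 1 library labelled 3BKO. WT had 132 CPM in batch 1 and 74.3 in batch 2. On plate 211, 53 of 58 cells and 24 of 26 cells were above the WT median of their batch. A single cell at 8717 CPM held 14.9% of the Dnmt3l reads of the batch 1 library labelled 3AKO.

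Dnmt3b was lower than in WT in all 4 mutant libraries of day 3. Its log2 ratios to WT of the same batch were -1.20 (batch 1) and -2.61 (batch 2) under the label 3AKO, and -1.84 (batch 1) and -1.49 (batch 2) under the label 3BKO. Its level was 261 and 85.1 CPM under the label 3AKO and 167 and 185 under 3BKO, against 600.1 and 523 in WT. No day 3 library had Dnmt3b as low as the 16.4 CPM of 3BKO at day 9. A Dnmt3b read was found after thinning in 52% to 92.3% of the cells of these 4 libraries, compared with 19.4% in 3BKO at day 9.

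Across the 4 groups whose labels were not in doubt, the levels of Dnmt3a stood in the order WT day 3, WT day 9, 3BKO day 9 and 3AKO day 9. Those of Dnmt3b stood in the order WT day 3, 3AKO day 9, WT day 9 and 3BKO day 9. The batch values of neighbours did not overlap at any of these steps. Dnmt3l had the order 3BKO day 9, 3AKO day 9, WT day 3 and WT day 9, and 3AKO day 9 (81.4 to 160.3 CPM) overlapped WT day 3 (74.3 to 132).

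Co-detection was counted in cells thinned to 50000 reads. Dnmt3a and Dnmt3b were found together in 51 of 89 WT cells at day 9 (57.3%, 46.4% to 67.7%), where the product of their shares gives 43.5 cells. Of the WT cells with Dnmt3b, 96.2% also had Dnmt3a, whereas 69.9% of those with Dnmt3a had Dnmt3b. Dnmt3b in WT day 9 cells was in this sense nested within Dnmt3a, since 2 cells had Dnmt3b without Dnmt3a and 22 had Dnmt3a without Dnmt3b. Dnmt3l showed no such excess: it was found with Dnmt3a in 23 cells (22.97 by the product of shares) and with Dnmt3b in 18 (16.7). At day 3 Dnmt3a and Dnmt3b were found together in 66 of 79 WT cells, where the product of shares gives 64.7. The product makes no allowance for the number of detected genes in a cell.

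All 3 members were found in 40 of 79 WT cells at day 3 (50.6%) and in 18 of 89 at day 9 (20.2%). Dnmt3a and Dnmt3b without Dnmt3l was the most frequent combination of WT day 9, in 33 cells. In 3AKO at day 9 the most frequent combinations were Dnmt3b alone and Dnmt3b with Dnmt3l, in 20 of 88 cells each, and in 3BKO they were Dnmt3a with Dnmt3l, in 25 of 67, and Dnmt3l alone, in 16. Dnmt3b with Dnmt3l and without Dnmt3a was in 0 of 89 WT cells at day 9, a count at which shares up to 3.37% are possible. In the 2 libraries of plate 211 at day 3 it was in 21 of 58 and 15 of 26 cells.

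**Figure D2:**
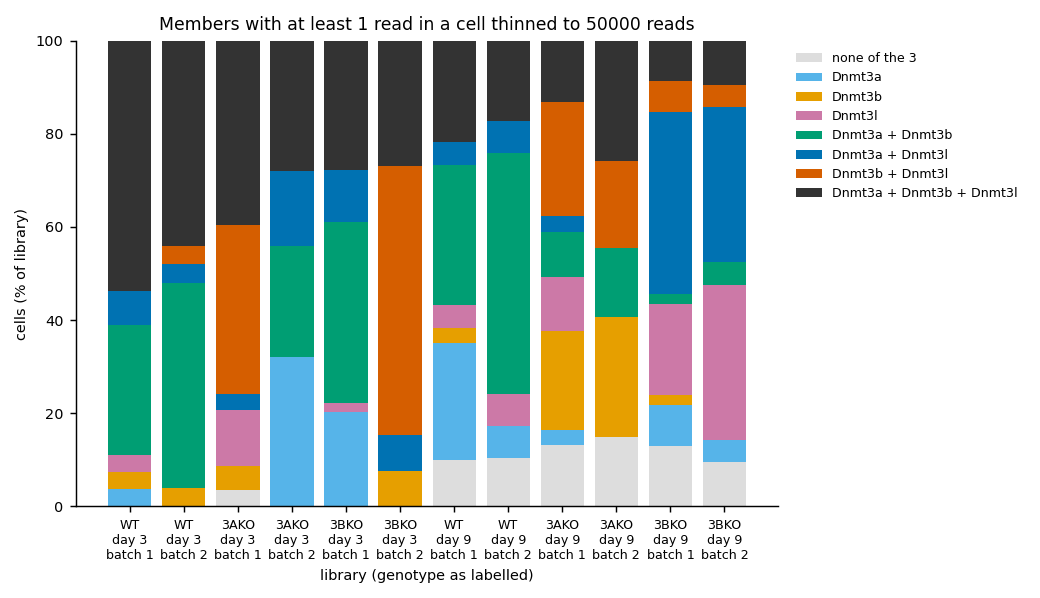
Stacked bars give the percent of cells of each library in which a combination of members had at least 1 read after thinning to 50000 reads. The green segment (Dnmt3a with Dnmt3b) is larger in WT and in the plate 210 libraries (3AKO batch 2 and 3BKO batch 1 of day 3) than in the others, the dark blue (Dnmt3a with Dnmt3l) and pink (Dnmt3l) segments are largest in 3BKO day 9, and the orange-red segment (Dnmt3b with Dnmt3l) is largest in the 2 libraries of plate 211.

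Dnmt3a and Dnmt3b varied together from cell to cell. In WT cells the Spearman rank correlation (rho) of their CPM was 0.407 in batch 1 and 0.483 in batch 2 at day 3 (54 and 25 cells), and 0.392 and 0.542 at day 9 (60 and 29 cells). The mean over the batches was 0.467 at day 9, and 3 of 4386 genes (0.0684%) had a rho with Dnmt3a as high as Dnmt3b. In the reverse direction 10 genes (0.228%) had a rho with Dnmt3b as high as Dnmt3a. At day 3 these shares of 6100 genes were 0.0984% and 0.311%. The median rho over all genes with Dnmt3a was 0.0582 at day 9, so Dnmt3b lay far from the middle of that distribution. Cells of a library share their plate and depth, and such values describe these cells only.

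The number of detected genes moved with both enzymes at day 9. The rank correlation with the number of detected genes was 0.25 and 0.48 for Dnmt3a and 0.45 and 0.451 for Dnmt3b in the WT batches, whereas that with total reads was 0.0338 and -0.158 for Dnmt3a and -0.0251 and -0.059 for Dnmt3b. Given total reads and detected genes, the partial rho of the pair was 0.323 and 0.396 at day 9, and 0.384 and 0.486 at day 3. The pair remained positive after that adjustment in all 4 WT libraries. Over all 12 libraries rho was positive in 11, with a median of 0.345. The exception was 3BKO day 9 batch 1 (-0.121), where Dnmt3b was at 0 in most cells. In 3AKO at day 9, where few Dnmt3a reads were left, rho was 0.383 and 0.306.

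Dnmt3l did not vary with either enzyme in a constant direction over the libraries. With Dnmt3a, rho in WT was -0.0558 and -0.323 at day 3 and 0.0934 and -0.189 at day 9. With Dnmt3b it was -0.148 and -0.455 at day 3 and 0.105 and -0.0782 at day 9, where the partial rho had the opposite signs (-0.0685 and 0.0612). The most negative value was thus that of Dnmt3b and Dnmt3l in the 25 WT cells of day 3 batch 2. Over both WT batches of day 3 the mean for this pair was -0.301. Of 6100 genes, 96.7% had a rho with Dnmt3b at least as high, and 98.5% a rho with Dnmt3l at least as high. For Dnmt3a and Dnmt3l the day 3 mean was -0.189, with shares of 93.4% and 91.4%. At day 9 the means were 0.0133 and -0.0478. Over the 12 libraries the pair Dnmt3a and Dnmt3l was positive in 6 and the pair Dnmt3b and Dnmt3l in 8. Dnmt3a and Dnmt3l were positive in both day 3 libraries of plate 211 (0.306 and 0.349) and in both of 3AKO at day 9 (0.15 and 0.25). In the 2 libraries of plate 210 rho was -0.125 and -0.019, and in 3BKO at day 9 it was 0.2 in batch 1 and -0.291 in batch 2.

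**Figure D3:**
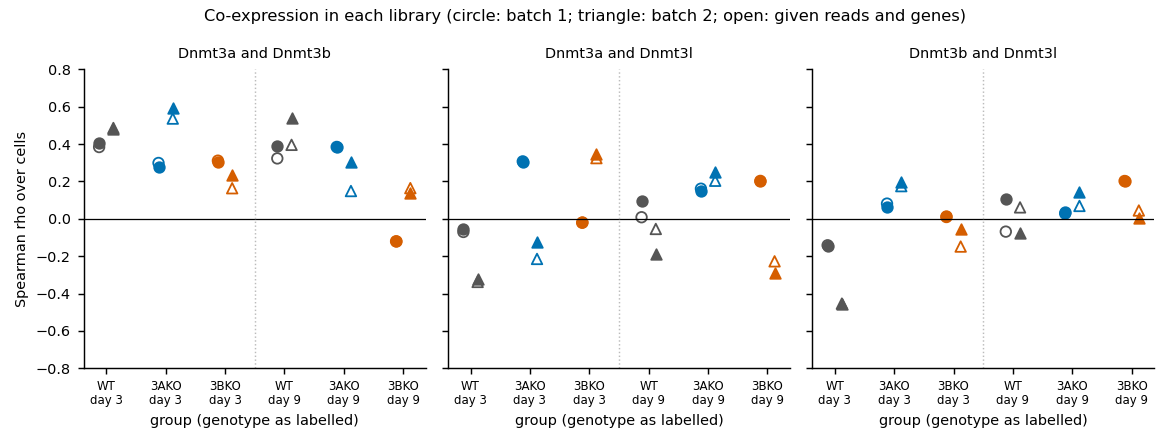
Points give Spearman rho over the cells of a library for each pair of members (vertical axis), by labelled genotype and day (horizontal axis). Circles are batch 1, triangles batch 2, and open symbols the partial rho given total reads and detected genes. Dnmt3a and Dnmt3b lie above 0 in 11 of 12 libraries, and the pairs with Dnmt3l lie on both sides of 0.

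The cells with much Dnmt3b were those with little Zfp42. Zfp42 (Rex1), a zinc-finger gene of naive pluripotent cells, had the lowest rho with Dnmt3b of 4103 genes ranked in WT cells at day 9, -0.439 in batch 1 and -0.638 in batch 2. The ranking did not use day 3, where the same rho was -0.666 and -0.691. Given total reads and detected genes it was -0.422 and -0.569 at day 9 and -0.667 and -0.679 at day 3. Its processed pseudogene Zfp42-ps1, with which it can exchange reads, was next (-0.533 over the batches), followed by Mylpf (-0.499), a myosin light chain gene. In 3AKO at day 9 the rho of Dnmt3b and Zfp42 was -0.0365 and -0.151.

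Over the whole naive list, the summed level per cell had a rho with Dnmt3b of -0.668 and -0.62 in the WT batches at day 3 and -0.379 and -0.632 at day 9. With Dnmt3a it was weaker at day 3, at -0.265 and -0.197, and -0.368 and -0.387 at day 9. With Dnmt3l it had the other sign, at 0.369 and 0.621 at day 3 and 0.123 and 0.342 at day 9. The primed epiblast list mirrored this, with a rho with Dnmt3b of 0.526 and 0.584 at day 3 and 0.506 and 0.479 at day 9, and with Dnmt3l of -0.455 and -0.364 at day 3 and about 0 at day 9 (-0.0302 and -0.0299). The rank correlation of the primed list with Dnmt3b was positive in 12 of 12 libraries (0.10 to 0.58), and that of the naive list negative in 11 of 12. The positive sign was not particular to the primed list. The general pluripotency genes Pou5f1, Sox2, Sall4 and Utf1, summed, were also positive with Dnmt3b in 12 of 12 (0.03 to 0.40). The 4 mutant libraries of day 9 were near 0 with the naive list, at 0.0623 and -0.066 in 3AKO and -0.102 and -0.0606 in 3BKO. Zfp42 itself gave 963 of the 2322 CPM of that list in WT at day 9, so the list and the gene are not separate evidence. In the WT cells of day 3, Dnmt3b and Dnmt3l thus had opposite signs with both the naive and the primed list, and at day 9 with the naive list.

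**Figure D4:**
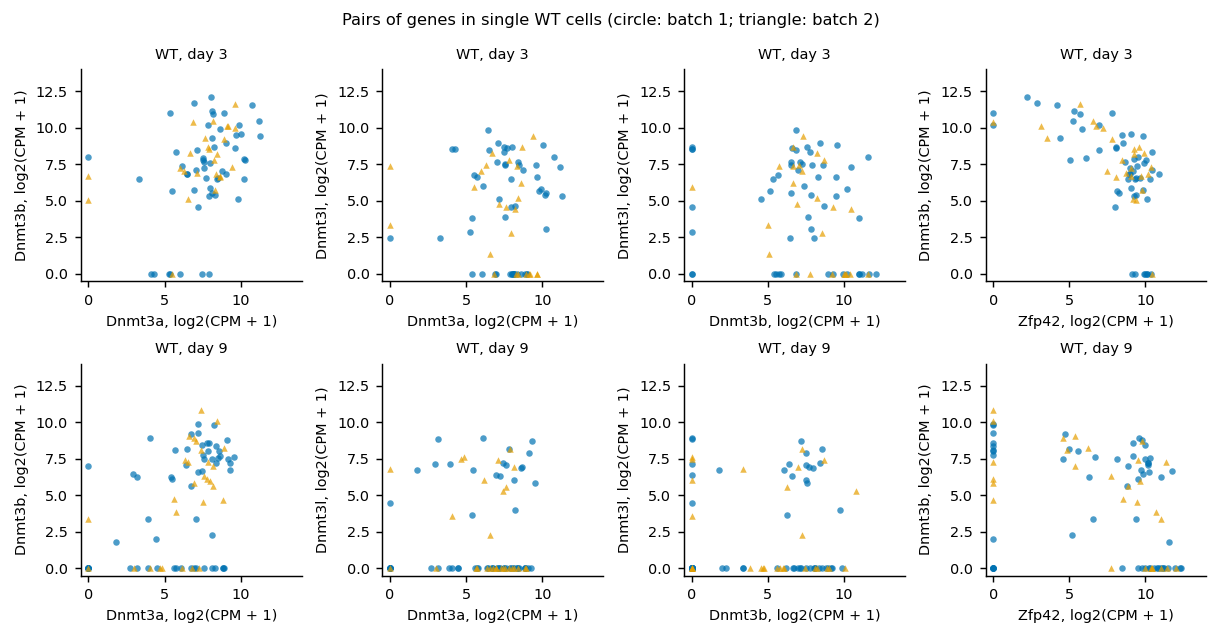
Each point is 1 WT cell, both axes are log2(CPM + 1), circles are batch 1 and triangles batch 2, with day 3 above and day 9 below. Dnmt3a and Dnmt3b go up together (rho 0.392 to 0.542 over the 4 libraries), pairs with Dnmt3l show no constant direction, and Dnmt3b goes down as Zfp42 goes up (rho -0.439 to -0.691).

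Other genes with patterns like a member were named by rho over the 89 WT cells of day 9 (mean of both batches). For Dnmt3a the highest were G3bp2 (0.497), Car2 (0.492), Slc16a3 (0.461), Slc7a11 (0.456) and Pdk1 (0.455), and the lowest Ypel5 (-0.516), Mylpf (-0.481) and Sugt1 (-0.479). For Dnmt3b the highest were Emb (0.538), Hmga1 (0.529), Ncapg (0.522), Gja1 (0.518) and Slc16a3 (0.508). Slc16a3, a lactate transporter, and Mylpf were on the lists of both enzymes. For Dnmt3l the highest were Zfp981 (0.464), Ostf1 (0.462), Ppp2r2d (0.43), Gstp2 (0.418) and Apobec3 (0.413), and the lowest Cd24a (-0.503), Cbx3 (-0.4) and Hnrnph2 (-0.375). In the WT cells of day 3 the rho of Gja1, a gap junction gene, with Dnmt3b was 0.505 and 0.514, and that of Hmga1, a chromatin protein gene, 0.49 and 0.405. Mylpf with Dnmt3b had -0.525 and -0.599 at day 3. Several other genes were less alike between the days. With Dnmt3b, Emb had 0.534 and 0.162 at day 3, Ncapg 0.0615 and 0.161, and Slc16a3 0.289 and 0.00962. Slc16a3 had 0.108 and -0.143 with Dnmt3a, and Zfp981 had 0.12 and 0.284 with Dnmt3l. Among the lowest genes, Ypel5 had -0.0627 and -0.00739 and Sugt1 0.00431 and -0.131 with Dnmt3a. Hnrnph2 had 0.23 and 0.186 with Dnmt3l, the opposite sign to day 9. Over the summed levels of the 12 libraries, 6 of which hold day 3 cells, the closest genes by Pearson r were Isy1 (0.962), Nde1 (0.898) and Hmgb2 (0.897) for Dnmt3a, Agpat3 (0.917), Pak1 (0.915) and Exoc3l (0.884) for Dnmt3b, and Trim25 (0.832), Dcaf12l1 (0.818) and Lncenc1 (0.81) for Dnmt3l.

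In WT cells Dnmt3b was the member most unequally spread over cells for its level. The coefficient of variation over WT day 9 cells was 1.03 and 0.842 for Dnmt3a, 1.4 and 1.91 for Dnmt3b and 2.08 and 1.81 for Dnmt3l, in batch 1 and batch 2. Since sparse genes vary more, the squared coefficient was set against the trend over all genes with a mean of at least 10 CPM (8198 and 8116 genes). Dnmt3b lay above the trend by 1.30 and 2.35 on the log2 scale, at percentiles 95.3 and 98.4. Dnmt3l lay above it by 1.10 and 0.52 (93.4 and 73.5), and Dnmt3a by 0.65 in batch 1 but below it by -0.27 in batch 2 (84.9 and 37.6). At day 3 Dnmt3b of WT was at percentiles 99.8 and 98.96, Dnmt3a at 99.5 and 76.5 and Dnmt3l at 98.9 and 97.3. Without the highest cell of each batch, Dnmt3b in WT at day 9 lay above the trend by a mean of 1.35, against 1.82 with all cells. The order of the members was not the same in every mutant library. In 3BKO at day 9 Dnmt3l lay at 1.19 and -0.20 against the trend, and Dnmt3b at 0.07 and 1.54. The 10% of WT day 9 cells with the most reads of a member held 53.7% of its reads for Dnmt3b, 62.9% for Dnmt3l and 30.1% for Dnmt3a.

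Dnmt3l in 3BKO day 9 cells, where its level was higher, had a coefficient of variation of 1.03 in batch 1 and 0.901 in batch 2. Against the trend it was not lower than in WT in batch 1 (1.19 against 1.10 on the log2 scale, percentile 94.9) but was in batch 2 (-0.20 against 0.52, percentile 41.8). In 3AKO day 9 it was 1.72 and 1.62. Dnmt3b in 3AKO day 9 had 1.61 and 1.34, at percentiles 97.2 and 97.7, so its place among all genes was similar to that in WT. The coefficient of Dnmt3l in the batch 1 library labelled 3AKO at day 3 was 2.15, which rests on the cell at 8717 CPM.

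**Figure D5:**
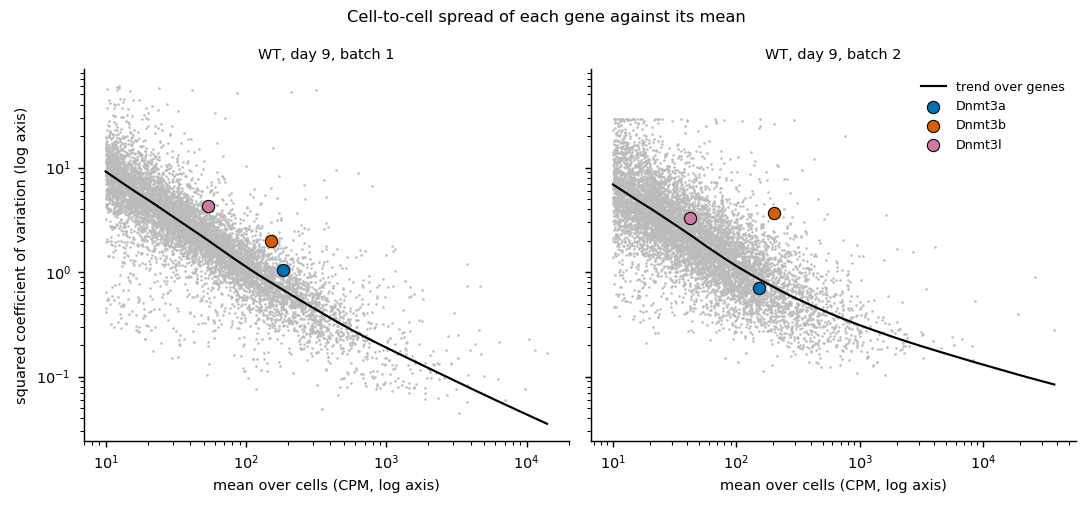
Grey points are genes, the horizontal axis is the mean CPM over WT day 9 cells and the vertical axis the squared coefficient of variation, both on log axes, for batch 1 (60 cells) and batch 2 (29 cells). The black line is the trend, and Dnmt3b lies above it in both panels while Dnmt3a crosses it.

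Of 24 other genes of DNA methylation and its control, 20 passed the detection filter at day 9. None was higher or lower by at least 2-fold in both batches in 3AKO, and in 3BKO 1 was higher and none lower. Over all genes the shares were 1.07% higher and 1.59% lower in 3AKO and 2.86% and 4.98% in 3BKO, so these counts are near the background. That gene was Prdm14, a repressor of de novo methyltransferase genes in naive ESCs. It had 119.9 CPM in 3BKO and 51 in WT (log2 ratio 1.22, with 1.31 and 1.05 in the batches), and 25.8 CPM in 3AKO (log2 ratio -0.96, with -0.70 and -1.38). Dnmt1, the maintenance enzyme, had log2 ratios of -0.73 in 3AKO (-0.95 and -0.25) and -0.99 in 3BKO (-0.64 and -1.25). Its partner Uhrf1 had 0.02 and -0.55. The demethylation genes Tet1 and Tet2 had -0.41 and -0.85 in 3AKO and 0.08 and 0.31 in 3BKO. The median log2 ratio of the 20 genes was -0.43 in 3AKO and -0.16 in 3BKO, beside -0.10 and -0.08 over all genes tested. Between the days in WT, 21 of the 24 passed, and Uhrf1 was the 1 that was lower by 2-fold (-1.52). Dnmt3c, a methyltransferase of the male germline, had 0 reads in every group of day 9.

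Genes that share sequence with the members bear on their counts. The antisense gene Dnmt3aos shares 133 exon bases with Dnmt3a (0.799% of its exons) and had 0 reads at day 9, as had the pseudogenes Dnmt3a-ps1 and Dnmt3l-ps1. Aire, on the opposite strand, shares 67 exon bases with Dnmt3l (2.24%). At day 9 WT cells had 11.5 CPM of Aire, 3AKO cells 23.8 and 3BKO cells 29.8, in the same order as Dnmt3l. Of the cells with Aire reads, 11 of 15, 24 of 28 and 26 of 31 had Dnmt3l reads too. Aire reads were 24.3%, 18.7% and 13.03% of the Dnmt3l reads. The counting options in the study's methods name no strand setting, so reads from the shared bases cannot be told apart by strand, and the part of Aire in the Dnmt3l values was not tested.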

How the data were processed

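Smart-seq2 was applied to single EB cells of the 3 genotypes. The authors deposited raw counts of reads per gene name, made by trimming single-end reads with Trim Galore, alignment to GRCm38 with STAR and counting over exons with featureCounts and a GENCODE annotation, with multimapped reads left out. The table held 26 columns with no sample (8 empty and 18 mini-bulk wells), which were not used. Groups, days and batches came from the labels.

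Counts were summed over kept cells and divided by the total of all genes (CPM). Log2 ratios used a pseudocount of 1 CPM, and a gene was called past 2-fold only if both batches passed, among genes with a read, in each batch, in 20% or more of the cells of the first or the second group. Sums have exact Poisson intervals, ratios of sums exact conditional ones and shares Clopper-Pearson ones, at 95%. Bounds of a difference of shares set the low bound of 1 share against the high bound of the other. Shares and combinations used cells thinned to 50000 reads. A count of 0 allows up to 3. Correlations were taken within a library, for genes detected in at least 50% of the WT cells of both batches. Genes like a member, leaving out unnamed gene models, were the 5 highest and 3 lowest by rho and the 3 highest by Pearson r over 12 libraries. Of the pathway list, Dnmt1, Uhrf1, Tet1, Tet2, Prdm14 and genes past 2-fold at day 9 were named. The spread trend was a lowess fit with a span of 0.3. Positions and exon lengths came from GENCODE vM21, and promoters from RefSeq. Doublets were not looked for, since 1 cell was sorted per well. The log2 ratios, rank correlations and spread were tested on simulated data.

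The members, gene lists and measures were chosen with earlier results of these data known. Libraries of 1 label and day come from a single group without labelled cultures, so no difference has a replicate check beyond the batches. Alternatives were other cell filters, each batch alone, thinning, other denominators, scaling with TMM in edgeR 4.0.16 or with size factors from DESeq2 1.42.0, a pseudocount of 0.1 or 10 CPM, and leaving out the highest cell. Python 3.11.15, NumPy 2.4.6, pandas 2.3.3, SciPy 1.17.1 and statsmodels 0.14.6 were used.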

Additional observations from a re-analysis of the deposited data

Results flagged for a closer look

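At day 3, Dnmt3a stood on opposite sides of WT in the batches of each mutant label. Its log2 ratio to WT under the label 3AKO was -4.09 in batch 1 and 0.32 in batch 2, and under the label 3BKO 0.37 in batch 1 and -4.28 in batch 2. Dnmt3l did the same under the label 3BKO, at -1.32 in batch 1 and 1.38 in batch 2. These differences between batches were not tested. The libraries with low Dnmt3a were on plate 211 and the others on plate 210.

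At day 9, Dnmt3b was above WT in both batches of 3AKO (log2 ratio 0.59 over both) and below it in both batches of 3BKO, the knockout of Dnmt3b itself (-3.27). The difference between the knockouts was not tested.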

How the results depend on the processing

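Of 183 alternative values, 172 stayed within a set limit. For levels, shares of cells, correlations and cell-to-cell spread, the limit was the counting interval or the spread between the batches. That outcome is nearly fixed by construction for the values of 1 batch alone. The 9 shares of all genes were instead judged by their ratio to the reported share. Every alternative kept the sign of each level and share difference and of the Dnmt3a and Dnmt3b correlation. The sign was kept in 6 of 7 for Dnmt3a with Dnmt3l, in 4 of 7 for Dnmt3b with Dnmt3l and in 5 of 6 for the spread of Dnmt3a around the trend. No paired analysis was possible because replicate numbers only count cells and no test was run; ratios within each shared library batch are given in its place. Among levels, a pseudocount of 10 CPM moved 3 log2 ratios at day 9: Dnmt3a in 3AKO to -2.32, Dnmt3b in 3BKO to -2.74 and Dnmt3l in 3BKO to 2.07, as its construction implies for low values. Dnmt3a in 3AKO was -2.54 in batch 2 alone and -2.85 with cells thinned before summing. Dnmt3b in 3BKO was -3.09 by the mean of single-cell CPM and -3.72 without the highest cell of each group. Dnmt3l in 3BKO was 2.46 in batch 1 alone, and its day 9 to day 3 ratio in WT was -1.37 with median-ratio size factors. The partial rho of Dnmt3a and Dnmt3b given reads and genes was 0.36. Apart from the pseudocount and the highest cell, the cause was not tested. The median log2 ratio of all genes between the WT days was 0.19 as reported, and rescaling shifted every gene downward, Dnmt3a from -1.17 to -1.34 with TMM. Dnmt3a in WT was -0.89 between the days in batch 2 alone, short of 2-fold, and Dnmt3b in 3AKO stayed short of it throughout (0.31 to 0.83). The share of all genes past 2-fold in 3AKO was 1.55% among genes detected in 40% of cells, against 2.65%. The spread of Dnmt3l could not be computed among genes of at least 50 CPM, since its mean was below that in batch 2. Shares over 67 to 89 cells had intervals as wide as 44.04% to 68.8%, which cover counting error within 1 sample only.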
